A study of Drosophila melanogaster with 8 samples.

Results

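The nuclear tRNA genes of Drosophila melanogaster were examined for anti-GFP CUT&RUN peaks in larval wing imaginal discs, the epithelial sacs that give rise to the adult wing. They were taken as every gene on a chromosome arm whose symbol begins with tRNA: in the RefSeq annotation of the Release 6 genome. This gave 295 genes among 17673 annotated genes, of which 290 are annotated as tRNA genes and 5 as tRNA pseudogenes. A gene was counted as hit in a peak list when at least 1 bp of a peak lay in its span or in the 500 bp on either side.

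A tRNA carries an amino acid to the ribosome and reads its codon through a complementary anticodon. The genes are short and are transcribed by RNA polymerase III from promoter elements inside the gene, the A box and the B box, which the factor TFIIIC binds before it recruits TFIIIB. Many are repeated in near-identical copies, scattered or in clusters, often inside or between protein-coding genes. Zelda is a zinc-finger pioneer factor, known from the early fly embryo for opening chromatin at enhancers and promoters of genes transcribed by RNA polymerase II.

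CUT&RUN tethers a nuclease to chromatin through an antibody and sequences the released fragments. The 8 libraries form 4 groups of 2, and all received the same rabbit anti-GFP antibody. Zelda-GFP discs carried a GFP tag on Zelda at its own locus and were taken 2 days after damage (damaged, during wing regeneration) or in normal development (undamaged). Wild-type discs came from w1118 larvae with no GFP, damaged or undamaged in the same way, and give the background of the antibody. The way damage was induced, the age of the larvae and the number of discs per library are not given in the sources used here. Nothing states that replicates came from separate animals, so their spread may be technical. The peak lists hold no expression values, and the tissue label was therefore not checked against marker genes.

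Lists on the 6 arms held 3624 and 3908 peaks in Zelda-GFP damaged discs and 2908 and 1698 in Zelda-GFP undamaged discs. They held 2282 and 3706 peaks in wild-type damaged discs and 1744 and 3355 in wild-type undamaged discs. Read totals are not in the lists. The lowest expected coverage recovered from a list, which stands in for depth, ranged from 32.6 to 52.3 fragments per base. List length and depth were not the same in the groups compared. Values from lists of equal length (the 1698 peaks with the highest −log10 q in each) are given beside the main comparisons, and the part of depth was not tested.

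The tRNA genes are short, with a median length of 73 bp and a range of 71 to 186 bp. They numbered 100 on arm 2R, 79 on 3R, 49 on 3L, 41 on 2L and 26 on X, with none on chromosome 4. Genes whose 500-bp flanks overlap were merged into 176 loci, because 1 peak can hit several neighbours at once. A single gene made up 105 of these loci, 45 held 2 genes, and 26 held 3 to 7. By symbol the genes fall into 22 classes, the initiator methionine and selenocysteine tRNAs counted separately, and into 89 families of shared anticodon and family number. Members of a family are near-identical in general. How reads matching several copies were placed is not stated in the sources used here, so a peak inside a repeated gene could be under- or over-called, whereas a peak in unique flanking sequence is less exposed to this.

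Most tRNA genes had no peak in any library. A peak lay within 500 bp of 52 of the 295 genes in at least 1 of the 8 lists, or 17.6%. Among all annotated genes on the arms the same call was met by 35.2%, but those genes are mostly far longer. Windows of the same total length as a median tRNA gene with its flanks (1073 bp), laid end to end over the arms, were hit in at least 1 list in 11% of cases. By locus the share was also 17.6%, or 31 of 176.

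In Zelda-GFP damaged discs 16 and 21 tRNA genes were hit. These are 5.42% of the genes in replicate 1 (95% Wilson interval 3.37% to 8.63%) and 7.12% in replicate 2 (4.7% to 10.6%). The background over all annotated genes was 15.2% and 16.6% in the same lists, and over the 1073-bp windows 4.67% and 4.8%. The window share lay inside the interval of the tRNA share in both lists.

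Zelda-GFP undamaged discs had 1 gene hit in each library, or 0.339% (0.0599% to 1.89%). All annotated genes were hit at 7.32% and 3.16% there, and windows at 3.67% and 2.19%. The window share was above the upper bound for tRNA genes in both libraries, as it was in replicate 1 of each wild-type group below. With loci counted once, the upper bound was 3.15% in both Zelda-GFP undamaged libraries and in wild-type damaged replicate 1. It was 2.14% in wild-type undamaged replicate 1. The window share was then above the bound only in replicate 1 of Zelda-GFP undamaged and of wild-type undamaged discs. A locus of several genes spans more sequence than a window.

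Wild-type discs, which carry no GFP, did not lack tRNA hits. Damaged wild-type discs had 2 genes hit in replicate 1, or 0.678% (0.186% to 2.44%), and 10 in replicate 2, or 3.39% (1.85% to 6.13%). All annotated genes were hit at 5.19% and 19.3% in these lists, and windows at 2.95% and 4.31%. Undamaged wild-type discs had no tRNA hit in replicate 1, where a count of 0 allows a share of up to 1.02%. Replicate 2 had 18, or 6.1% (3.89% to 9.44%). All annotated genes were hit at 3.19% and 9.26%, and windows at 2.19% and 3.73%. Wild-type undamaged replicate 2 therefore lay between both Zelda-GFP damaged libraries in its tRNA share. Its interval excluded its own window share, as in no other list on the high side. The intervals over genes cover counting error only and take neighbouring genes as independent, which genes under 1 peak are not. With loci counted once, wild-type undamaged replicate 2 had 6.25% (3.53% to 10.8%), an interval that held its window share of 3.73%. The plot of shares by library sets the tRNA share beside that of windows, of small noncoding RNA genes and of protein-coding gene ends.

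**Figure D1:**
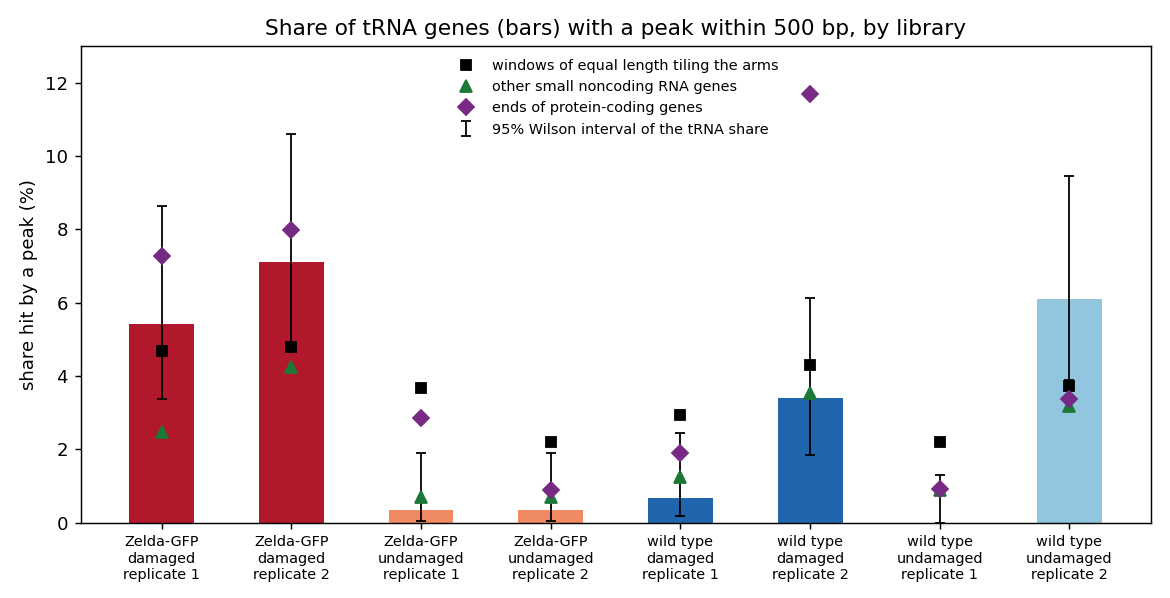
Share of tRNA genes hit (bars, %, with 95% Wilson intervals) in each of the 8 libraries. Beside it are the shares of 1073-bp windows (squares) and of 566 small noncoding RNA genes given the same 500-bp flanks (triangles). Diamonds give the share of protein-coding gene ends, each taken as a 1073-bp window centred on the end. The 3 highest bars are Zelda-GFP damaged replicate 2 at 7.12%, wild-type undamaged replicate 2 at 6.1% and Zelda-GFP damaged replicate 1 at 5.42%.

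The first comparison asked what the tag added. The mean tRNA share in damaged discs was 6.27% ± 1.2 in Zelda-GFP and 2.03% ± 1.92 in wild type (SD, n = 2 each), a difference of 4.24 percentage points, and the libraries of the groups did not overlap. The difference was 1.19 points with lists of equal length and 0.169 with the gene span alone. With the summit required in the window it was 1.36, and the libraries overlapped, with 7 and 11 genes in Zelda-GFP and 2 and 8 in wild type. In undamaged discs it was 0.339% ± 0 in Zelda-GFP and 3.05% ± 4.31 in wild type, a difference of -2.71 points. That value rested on wild-type undamaged replicate 2. Without this library the difference was 0.339 points. The second comparison asked what damage changed. Within Zelda-GFP the mean was 6.27% ± 1.2 in damaged discs and 0.339% ± 0 in undamaged discs, a difference of 5.93 points, again with no overlap. It was 1.19 points with lists of equal length, 0.847 with a fold of at least 3 and 0.339 with the gene span alone. Within wild type it was 2.03% ± 1.92 in damaged discs and 3.05% ± 4.31 in undamaged discs, a difference of -1.02 points that lies within the spread of the libraries and turned to 0.339 without wild-type damaged replicate 1 and to 2.03 without wild-type undamaged replicate 2. A comparison of 2 against 2 libraries cannot go below p = 0.333 in an exact permutation test, and no p is given for these shares. Zelda-GFP damaged libraries also had more arm peaks than the others, except that wild-type damaged replicate 2 had more than Zelda-GFP damaged replicate 1. Coding gene ends were hit at 7.27% and 7.97% in Zelda-GFP damaged discs and at 11.7% in wild-type damaged replicate 2, with at most 3.36% in the other 5 lists.

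Another class of short genes also had its highest share in Zelda-GFP damaged replicate 2. Of 566 genes for snoRNAs, snRNAs, scaRNAs and miRNAs, 2.47% and 4.24% were hit in Zelda-GFP damaged discs and 0.707% in both Zelda-GFP undamaged libraries. Wild-type shares were 1.24% and 3.53% in damaged discs and 0.883% and 3.18% in undamaged discs. Replicate 2 was the higher library of the pair in both wild-type groups, for these genes and for tRNA genes alike.

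Replicates were compared gene by gene. Zelda-GFP damaged replicates shared 9 genes, which are 56.2% of those hit in replicate 1 and 42.9% of those hit in replicate 2, and 28 genes were hit in either. Zelda-GFP undamaged replicates shared their 1 gene. Wild-type damaged replicates shared none of 12, and wild-type undamaged replicates none of 18, where replicate 1 had no hit to share. Over all annotated genes the shared part was 74.3% of replicate 1 and 68.1% of replicate 2 in Zelda-GFP damaged discs, 40.3% and 93.2% in Zelda-GFP undamaged, 79.3% and 21.3% in wild-type damaged and 85.6% and 29.5% in wild-type undamaged discs. Over the 8 lists 39 tRNA genes were hit in 1 list, 11 in 2, 1 in 3 and 1 in 5, and none in all 8. Of all annotated genes 349, or 1.97%, were hit in all 8.

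The 9 shared genes were also those hit in both Zelda-GFP damaged lists and neither wild-type damaged list. They are 3.05% of the tRNA genes, in 6 loci, against a background of 5.4% of all annotated genes that met the same call. The opposite pattern, both wild-type damaged lists and neither Zelda-GFP damaged list, was met by no tRNA gene and by 0.685% of all genes. The count of 9 was 2 with lists of equal length, 2 with the summit required in the window and 0 with the gene span alone. Counts from a single list are larger, since agreement is then not asked for. They were 16 tRNA genes with replicate 1 of Zelda-GFP damaged alone and 21 with replicate 2 alone. The share of all annotated genes was not computed for these settings or for single lists. These counts are therefore not read as a result about tRNA genes.

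In undamaged discs, no tRNA gene was hit in both Zelda-GFP lists and neither wild-type list, where 0.402% of all genes were. The 1 gene hit in both Zelda-GFP undamaged lists was also hit in wild-type undamaged replicate 2 and met the call without that library. None was hit in both wild-type undamaged lists and neither Zelda-GFP undamaged list, against 0.181% of all genes.

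Between conditions, 8 tRNA genes in 5 loci, or 2.71%, were hit in both Zelda-GFP damaged lists and neither Zelda-GFP undamaged list, against 7.27% of all genes. The count was 1 with lists of equal length, 2 with the summit in the window and 0 with the gene span alone. Again 1 list alone gave more, 15 genes with replicate 1 and 20 with replicate 2 of Zelda-GFP damaged. This call and the one against wild type share the Zelda-GFP damaged libraries. The reverse was met by no tRNA gene and 0.158% of all genes. In wild type no tRNA gene was hit in both damaged and neither undamaged list (background 1.25%), and none in both undamaged and neither damaged list (background 0.113%). Taking 1 wild-type damaged list alone, 10 genes with replicate 2 and 2 with replicate 1 met the first of these calls. For the other settings and single lists of this paragraph, too, the share of all genes was not computed.

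Each gene was also tested over all 4 Zelda-GFP against all 4 wild-type libraries, and over the 4 damaged against the 4 undamaged, with a two-sided exact permutation test of hit against not hit. With 70 labelings the smallest p this allows is 0.0286. For Zelda-GFP against wild type, 29 of 17673 genes had an unadjusted p under 0.05 (0.164%), 20 of them hit more often in Zelda-GFP and 9 less often. For damaged against undamaged, 58 genes did (0.328%), 56 of them hit more often in damaged discs. After Benjamini-Hochberg adjustment over all genes, no gene was under 0.05 in either comparison. No tRNA gene had an unadjusted p under 0.05 in either, and the smallest were 0.143 for the tag and 0.429 for damage by the exact test. The 0.143 belongs to tRNA:Glu-CTC-5-1Psi, and without wild-type undamaged replicate 2 its exact p was 0.0286, with a hit in 4 of 4 Zelda-GFP and 0 of 3 wild-type libraries. That library held the only wild-type hit of this gene, so leaving it out fixed the outcome in advance. The value is unadjusted, and no conclusion is drawn from it.

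The locus hit in most lists lies on arm 2R from 19727460 to 19729353 (Release 6) and holds 5 glutamate tRNA genes, tRNA:Glu-TTC-1-5, tRNA:Glu-TTC-1-6, tRNA:Glu-CTC-2-1, tRNA:Glu-CTC-2-2 and the pseudogene tRNA:Glu-CTC-5-1Psi. Its peak had a fold enrichment, the authors' ratio of signal to local expected coverage, of 2.46 and 2.21 in Zelda-GFP damaged discs and 2.03 and 2.56 in Zelda-GFP undamaged discs. Wild-type damaged discs had no peak there, and wild-type undamaged discs had none in replicate 1 and one of 3.60 in replicate 2. In all 5 lists the pseudogene alone was within reach, and the 4 intact glutamate genes had no hit in any list.

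That peak overlaps the tandem array of 5S rRNA genes, another RNA polymerase III template, which makes the small RNA of the large ribosomal subunit. The array holds 100 annotated genes from 19729562 to 19766278 on 2R and begins 208 bp after the pseudogene. Peaks lay in the array in every library and covered part of it, 48% and 55% of its length in Zelda-GFP damaged, 53.9% and 44.7% in Zelda-GFP undamaged, 39.7% and 41% in wild-type damaged and 37.3% and 87.6% in wild-type undamaged discs. With the 500-bp flanks they hit 78 and 84 of the 5S genes in Zelda-GFP damaged, 87 and 81 in Zelda-GFP undamaged, 79 and 82 in wild-type damaged and 79 and 99 in wild-type undamaged discs. The highest fold in the array was 4.45 and 4.44 in Zelda-GFP damaged, 6.08 and 5.82 in Zelda-GFP undamaged, 6.6 and 7.5 in wild-type damaged, and 6.88 and 4.46 in wild-type undamaged discs. The array thus held peaks with and without the tag. Its repeats are near-identical copies, so the placement of reads within it is uncertain, and the hit of the pseudogene turns on where the edge of the first peak was placed.

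The other loci hit in both Zelda-GFP damaged libraries lie beside or inside protein-coding genes. The tryptophan and glycine genes tRNA:Trp-CCA-2-2 and tRNA:Gly-GCC-1-9 (2R, 18639557 to 18639796) lie 287 bp from an end of CG30122. Folds were 1.72 and 3.61 in Zelda-GFP damaged discs, and among wild-type libraries undamaged replicate 2 had 1.74, with no peak in the other 5 lists. The 3.61 peak ended 338 bp before the tryptophan gene with its summit 603 bp away, inside CG30122. The glycine gene was not within reach of that peak. At tRNA:Trp-CCA-2-3, tRNA:Gly-GCC-1-12 and tRNA:Trp-CCA-2-4 (2R, 21161063 to 21161597) folds were 3.10 and 3.51 in Zelda-GFP damaged discs, with no peak in the other 6 lists. Both summits lay over 500 bp from the nearest tRNA gene, at 824 and 874 bp, inside CG30389. Both peaks were within reach of tRNA:Trp-CCA-2-3, that of replicate 1 alone was within reach of tRNA:Gly-GCC-1-12, and neither of tRNA:Trp-CCA-2-4. No other tRNA locus reached a fold of 3 in both Zelda-GFP damaged libraries.

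The aspartate genes tRNA:Asp-GTC-1-4 and tRNA:Asp-GTC-1-5 (2L, 8541552 to 8541832) lie between CG17834 and Sema1a, which encodes a transmembrane semaphorin of axon guidance. Peaks inside Sema1a reached to within 340 and 329 bp of tRNA:Asp-GTC-1-5, with folds of 1.90 and 2.23 in Zelda-GFP damaged discs and none in the other 6 lists. The 3 proline genes tRNA:Pro-AGG-1-2, tRNA:Pro-AGG-1-3 and tRNA:Pro-AGG-1-4 (2L, 14598859 to 14599745) lie at and inside an end of osp. They had folds of 1.79 and 1.82 in Zelda-GFP damaged discs and no peak in the other 6 lists. These peaks fell in the gap between the first and second proline genes and came within 84 and 21 bp of tRNA:Pro-AGG-1-3, without reaching it. The sixth locus of this class, named after its values were seen, holds tRNA:Arg-TCG-2-3 and tRNA:Arg-TCG-2-4 (3R, 8861880 to 8863005) inside pyd, which encodes a junctional scaffold protein. Its folds were 1.80 and 1.71 in Zelda-GFP damaged discs, from peaks lying between the genes, with none elsewhere.

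**Figure D2:**
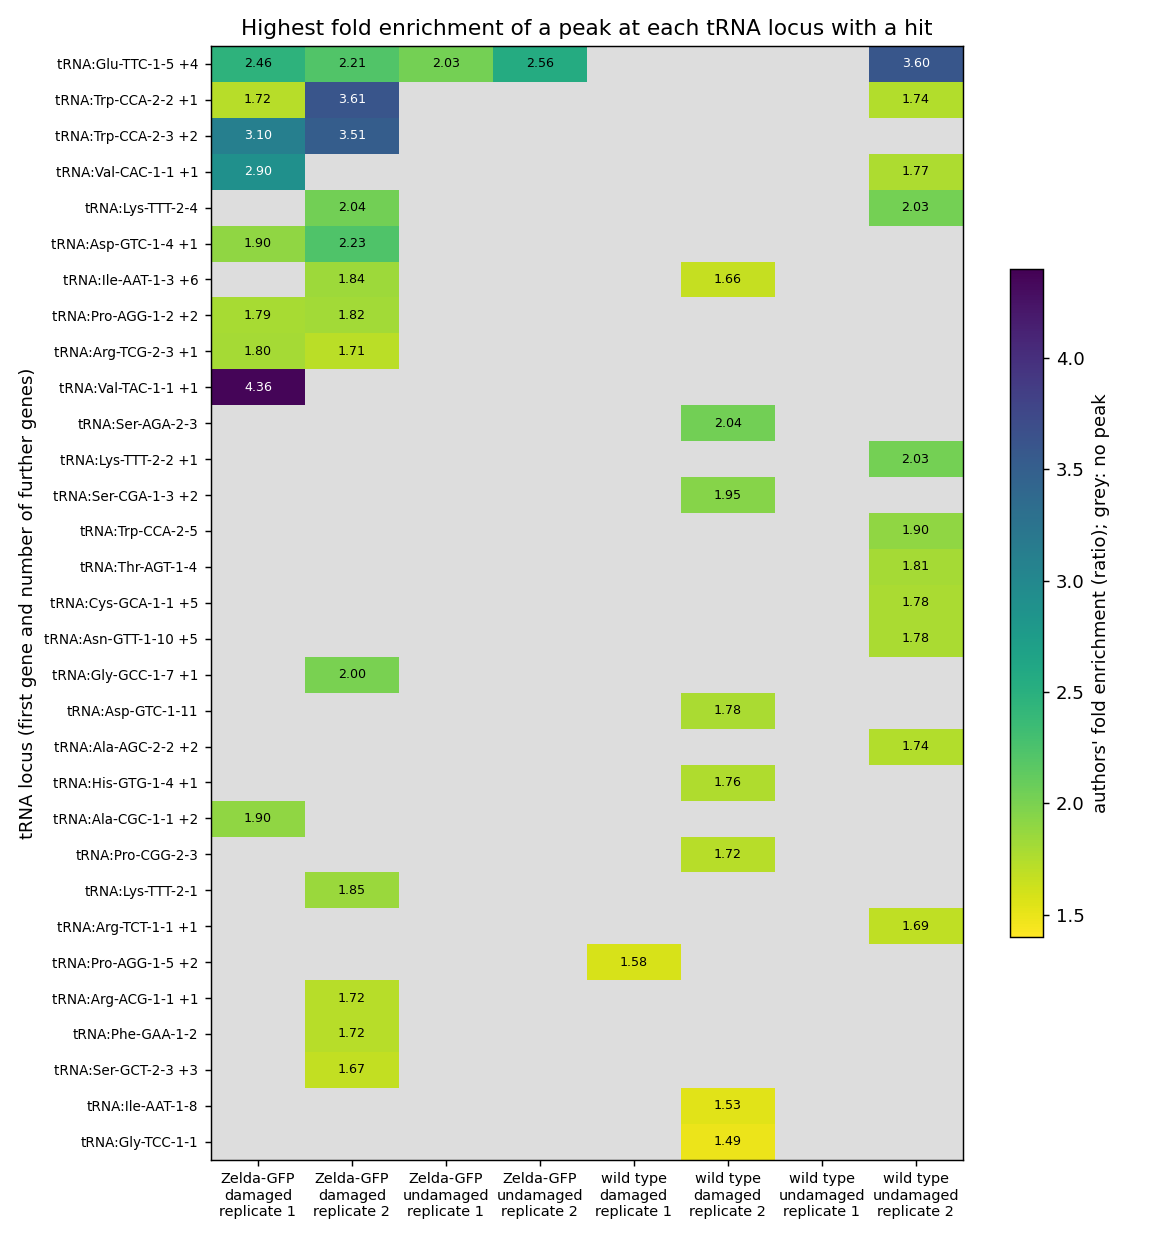
Highest fold enrichment (the authors' ratio, colour and printed value) of a peak at each of the 31 tRNA loci with a hit, in each of the 8 libraries, with loci down the page and Zelda-GFP libraries left of wild type; grey marks no peak. Most loci have a value in 1 library, and 6 have values in both Zelda-GFP damaged libraries.

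Several loci were hit in 1 Zelda-GFP damaged and 1 wild-type library. tRNA:Val-CAC-1-1 and tRNA:Pro-TGG-1-1 (3R, 17617761 to 17618181) had 2.90 in Zelda-GFP damaged replicate 1 and 1.77 in wild-type undamaged replicate 2, from peaks on opposite sides of the pair. tRNA:Lys-TTT-2-4 (3R, 6822963 to 6823035), 85 bp from an end of the Hox gene Scr, had 2.04 in Zelda-GFP damaged replicate 2 and 2.03 in wild-type undamaged replicate 2. Both peaks overlapped 7SLRNA:CR32864, a gene for the RNA of the signal recognition particle, which is also transcribed by RNA polymerase III. The 7-gene isoleucine and leucine locus inside ATP8A, a phospholipid flippase gene (2R, 13430282 to 13432794), had 1.84 in Zelda-GFP damaged replicate 2 and 1.66 in wild-type damaged replicate 2. The first peak covered tRNA:Ile-AAT-1-3 and the second lay between tRNA:Ile-AAT-1-7 and tRNA:Leu-CAA-1-1, so the hits concern different genes of the locus.

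Large clusters were not hit as a whole. The 6 cysteine and lysine genes inside the chitinase gene Cht7 (3L, 3095737 to 3097590) had a peak of 1.78 in wild-type undamaged replicate 2 alone, which put 4 of the 6 genes within reach. The 6 asparagine and arginine genes on 3R (8139533 to 8141042) also had a single peak, of 1.78, in wild-type undamaged replicate 2, and tRNA:Asn-GTT-1-10 alone was in reach of it. The 7 arginine and serine genes on X (14014814 to 14017284) had no peak in any list.

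The highest fold at any tRNA gene was 4.36, at tRNA:Val-TAC-1-1 (3L, 5356343 to 5356415) in Zelda-GFP damaged replicate 1 alone, a gene named after its values were seen. Its peak ended 385 bp short of the gene, with its summit 842 bp away, inside lama. Over all 69 combinations of gene and library with a hit, folds ran from 1.49 to 4.36 with a median of 1.79. A fold of at least 3 was reached in 6 of them, 3 in Zelda-GFP damaged replicate 1, 2 in Zelda-GFP damaged replicate 2 and 1 in wild-type undamaged replicate 2. The median fold at tRNA genes in Zelda-GFP damaged discs was 1.9 and 1.82, where all arm peaks of these lists had medians of 2.1 and 2.11. In wild type it was 1.58 and 1.69 in damaged discs and 1.78 in undamaged replicate 2, where arm peaks had 1.82, 1.85 and 1.84. Each of these 5 medians lay below that of its own list. In Zelda-GFP undamaged discs the single hits of 2.03 and 2.56 were above the list medians of 1.83 and 2.03.

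Peaks near tRNA genes lay beside the genes more often than over them. The peak overlapped the tRNA gene itself in 5 of 69 hits, or 7.25%, and reached only its flank in 64. For small noncoding RNA genes the peak overlapped the gene in 31 of 96 hits (32.3%). For the 1073-bp windows a peak covered part of the central 73 bp in 46% of hits. Counting only peaks shorter than 1000 bp, the shares were 7.46% of 67 hits for tRNA genes, 33.3% of 87 for small noncoding RNA genes and 37.8% for windows. No chance test was run on this difference. Hits of neighbouring genes share peaks, so a peak over 1 clustered gene also counts as a flank hit of its neighbours. The 69 hits came from 43 distinct peaks, of which 5 overlapped a tRNA gene. Such a count by peak was not made for the other classes. Peaks inside near-identical tRNA copies could be under- or over-called, and the part of read placement in this difference was not tested.

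The 5 overlapping hits came from 3 libraries. In Zelda-GFP damaged replicate 2 they were tRNA:Ile-AAT-1-3 with a fold of 1.84 and tRNA:Ser-GCT-1-1 with 1.67. In wild type they were tRNA:Pro-AGG-1-5 with 1.58 in damaged replicate 1, and tRNA:Trp-CCA-2-5 with 1.90 and tRNA:Cys-GCA-1-2 with 1.78 in undamaged replicate 2. The serine, proline, tryptophan and cysteine genes not given above were named after their values were seen. Tagged and untagged libraries were thus both represented, and no tRNA gene was overlapped in more than 1 list. The summit lay inside the gene only at tRNA:Cys-GCA-1-2. Over the 69 hits the summit was within 100 bp of the gene in 3, within 500 bp in 38 (those 3 included) and beyond in 31, with a median distance of 435 bp. The peaks had a median width of 403 bp. The map of peak extents shows that few lines cross the gene.

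**Figure D3:**
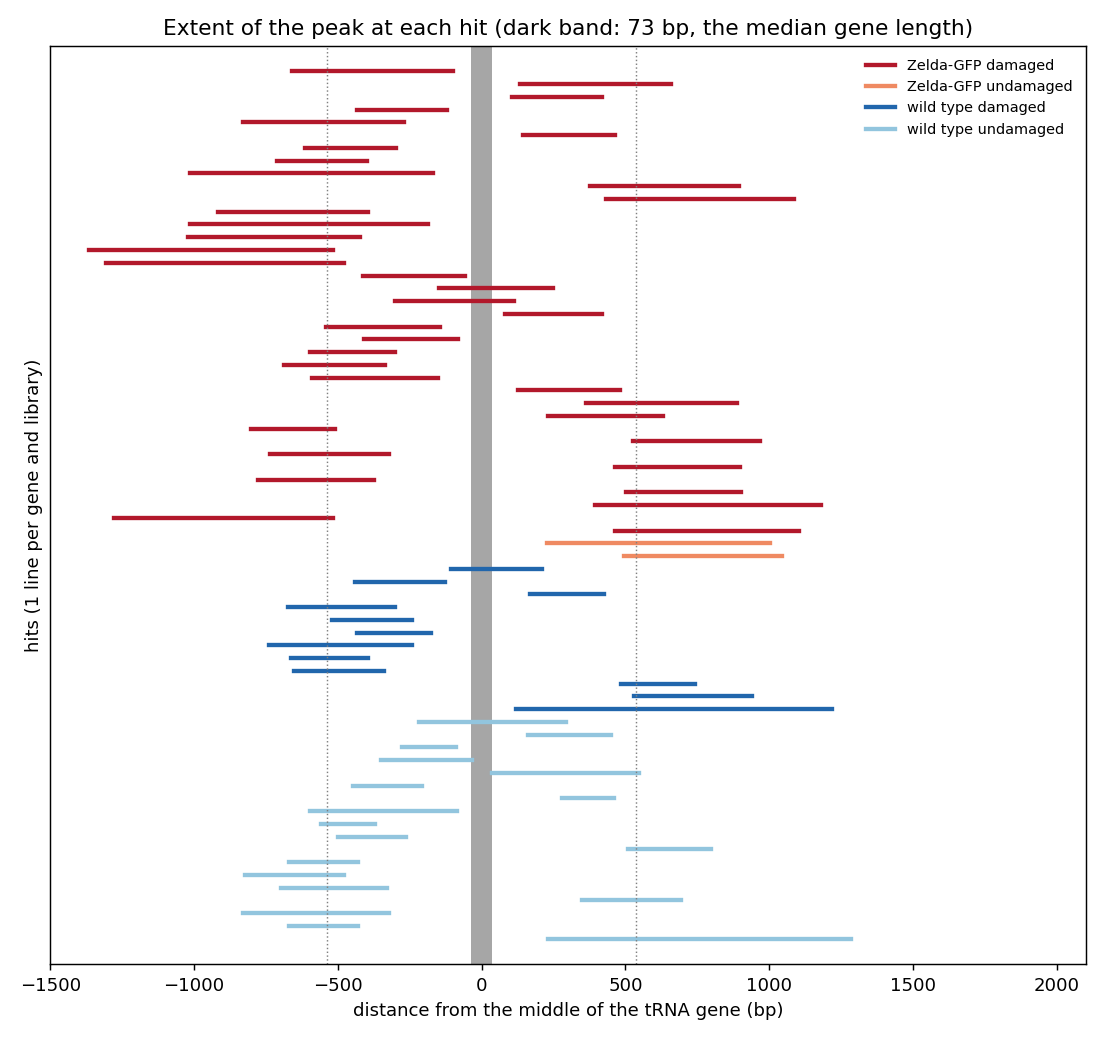
Extent of the peak at each of the 69 hits (1 line per tRNA gene and library, ordered by group) against distance from the middle of the tRNA gene in bp, with the gene as a dark band and the 500-bp limits dotted. Most lines end short of the band on one side or the other, and 5 overlap their gene, 2 in Zelda-GFP damaged and 3 in wild-type libraries.

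The same held for peak cover averaged over all 295 genes. In Zelda-GFP damaged discs the middle of the gene lay in a peak for 0% and 0.678% of genes. Within 500 bp of the middle the mean cover was 1.26% and 1.51%, and from 2 to 10 kb away it was 2.24% and 2.13%. In Zelda-GFP undamaged discs cover within 500 bp was 0.0925% and 0.0308%, and from 2 to 10 kb 1.26% and 0.716%. Wild-type damaged discs had 0.216% and 0.708% within 500 bp and 0.977% and 1.41% farther out. Wild-type undamaged discs had 0% and 1.36% within 500 bp and 0.688% and 1.85% farther out. In each of the 8 libraries mean cover over both sides was thus lower near the gene than 2 to 10 kb from it. The sides differed. At 4000 bp before the gene in chromosome orientation, wild-type undamaged replicate 2 had 0.339% and wild-type damaged replicate 2 had 0%. Each value was below the mean of that library near the gene. At 4000 bp after the gene cover was 3.39% in both. Zelda-GFP damaged discs had 2.03% and 2.37% before and 3.05% and 3.73% after. A locus of 3 tRNA genes and one of 5, on 2R from 19725620 to 19729353, lie just before the tandem 5S rRNA gene array. Positions from 4000 bp to 10 kb after these genes lie inside the array. Peaks covered 37.3% to 87.6% of the array, depending on the library. Its part in the far cover was not tested, nor was each side alone. The lower mean near the gene therefore holds for both sides together and with these genes included.

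**Figure D4:**
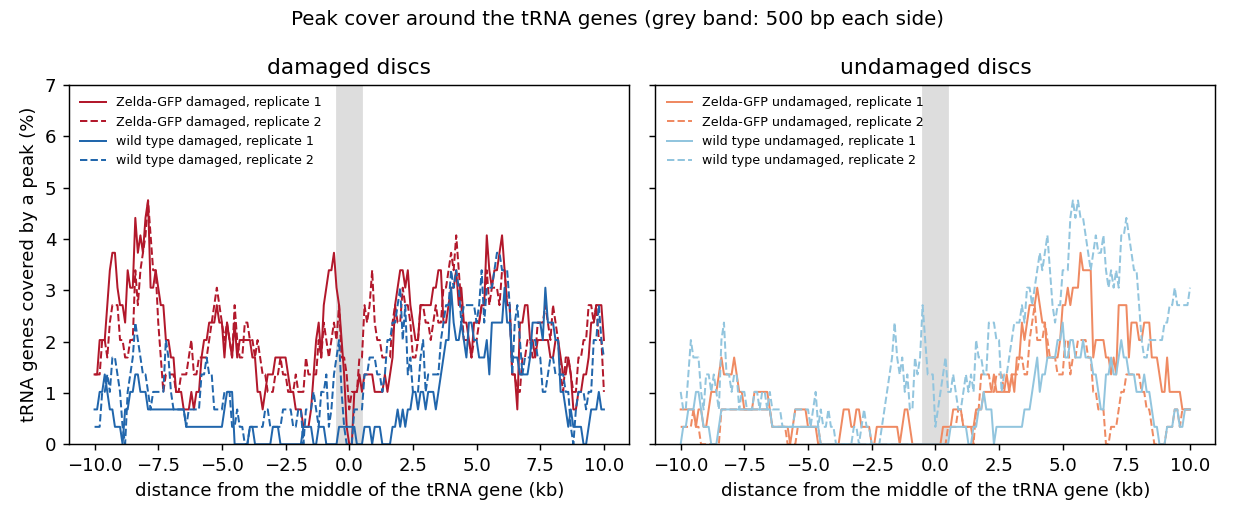
Percent of the 295 tRNA genes covered by a peak at each distance from the middle of the gene (kb, in chromosome orientation, since strand is not annotated here) for damaged discs (left) and undamaged discs (right), 1 line per library. No line has its highest point in the grey band of 500 bp each side, and the highest points, up to 4.75%, lie 3.9 to 7.9 kb away.

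The distance from a tRNA gene to the nearest peak also differed between libraries. The median was 14.6 and 14.3 kb in Zelda-GFP damaged discs and 42.1 and 116 kb in Zelda-GFP undamaged discs. Wild type gave 61.8 and 17.6 kb in wild-type damaged and 98.5 and 33.9 kb in wild-type undamaged discs. The Zelda-GFP damaged libraries had the shortest distances, with wild-type damaged replicate 2 next. A peak lay within 10 kb of 40.7% of the tRNA genes in both Zelda-GFP damaged libraries and of 15.3% and 6.1% in Zelda-GFP undamaged ones. In wild type it did for 12.2% and 34.2% in damaged and 7.12% and 29.2% in undamaged discs. Within each genotype and condition these distances followed the number of peaks in the list.

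Hits were commoner where a protein-coding gene ended nearby. Of 71 tRNA genes within 500 bp of a coding gene end, 20 were hit in some list, or 28.2% (Wilson interval 19% to 39.5%). Of the other 224, 32 were hit, or 14.3% (10.3% to 19.5%), and the intervals overlapped slightly. The 69 hits came from 43 distinct peaks. The summit was within 500 bp of a coding gene end in 18 of these (41.9%), against 20.2% of all 23225 arm peaks, or 25.1% when each list is weighted by its number of these peaks. By list the share was 55.6% and 38.5% in Zelda-GFP damaged discs, where arm peaks had 27% and 28.6%. It was 50% in wild-type damaged replicate 2 and 40% in wild-type undamaged replicate 2, where arm peaks had 39.2% and 12.7%. The summit was nearer to a coding end than to a tRNA gene within reach in 16 of the 43 peaks. These include the osp peak of Zelda-GFP damaged replicate 2. Its summit lay 121 bp from the coding end and 387 bp from tRNA:Pro-AGG-1-2, but 79 bp from tRNA:Pro-AGG-1-3. Lying inside or outside a coding gene gave like shares, 16.8% of 137 and 18.4% of 158 genes.

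Genes in larger clusters were hit more often. At least 1 list hit 27 of 100 genes in loci of 3 or more (27%, interval 19.3% to 36.4%), 15 of 90 in pairs (16.7%) and 10 of 105 single genes (9.52%, 5.26% to 16.6%). A larger locus spans more sequence and its genes share peaks, so these genes are not independent. By family size, 14% of 43 genes with no other family member were hit, 21.3% of 108 in families of 2 to 5 and 16% of 144 in larger families, and the intervals overlapped. In no family of more than 1 gene was every copy hit. On the arms 14.6% of the genes were hit on 2L, 19% on 2R, 16.3% on 3L, 21.5% on 3R and 7.69% on X, with overlapping intervals.

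By amino acid, 18 of 22 classes had a gene hit in some list. Proline tRNA genes had the highest share, 8 of 17 (47.1%, 26.2% to 69%), in 5 loci. Of these, 4 were hit in a Zelda-GFP damaged list and 5 in a wild-type list. Cysteine followed with 3 of 7 genes, all 3 under 1 peak in wild-type undamaged replicate 2. Tryptophan had 3 of 8, of which 2 were hit in both Zelda-GFP damaged lists and 2 in wild-type undamaged replicate 2. The 12 glutamine, 10 tyrosine, 6 initiator methionine and 1 selenocysteine genes had no hit in any list.

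**Figure D5:**
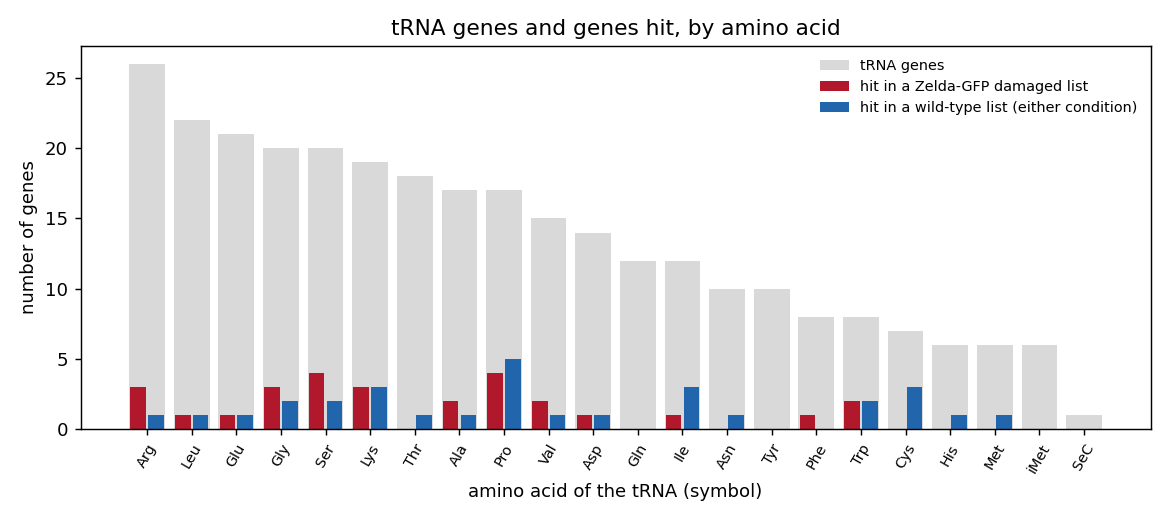
Number of tRNA genes per amino acid (grey bars), and how many were hit in a Zelda-GFP damaged list (red) or in a wild-type list of either condition (blue). No class is hit throughout, and tagged and untagged libraries hit many of the same classes, for example proline with 4 genes in red and 5 in blue.

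The genes hit were also compared between genotypes. A Zelda-GFP list hit 28 genes and a wild-type list 30. The 6 hit in both genotypes are 21.4% of the Zelda-GFP genes and 20% of the wild-type genes. The same shares were 53.4% and 49.6% over all annotated genes, and 29.7% and 26.8% over the small noncoding RNA genes. All 6 were hit in wild-type undamaged replicate 2, as 6 of its 18 genes were also hit in a Zelda-GFP damaged list.

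Other templates and the machinery of RNA polymerase III were read in the same way. Of 9 other templates (genes for 7SK, 7SL, U6, U6atac, RNase P and RNase MRP RNA), 1 and 2 were hit in Zelda-GFP damaged discs and 0 and 2 in Zelda-GFP undamaged discs, and 1 and 1 in wild-type damaged and 2 and 1 in wild-type undamaged discs. The shares of all annotated genes were 15.2% and 16.6% in Zelda-GFP damaged, 7.32% and 3.16% in Zelda-GFP undamaged, 5.19% and 19.3% in wild-type damaged and 3.19% and 9.26% in wild-type undamaged discs. None was hit in both Zelda-GFP damaged and neither wild-type damaged list. snRNA:7SKa, whose RNA holds back the elongation factor P-TEFb, had folds of 1.82 in Zelda-GFP damaged replicate 1 and 1.48 and 1.83 in the wild-type damaged libraries. snRNA:U6:96Ab and snRNA:U6:96Ac, spliceosomal RNA genes, shared a peak of 2.26 in Zelda-GFP undamaged replicate 2 and 3.04 in wild-type undamaged replicate 1.

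Of 16 genes for polymerase III subunits and factors, 7 were hit in some list and 1 to 4 in any one list, where 35.2% of all annotated genes were hit in some list. Maf1, a repressor of RNA polymerase III, was hit in all 8 lists, as were 1.97% of all annotated genes. Maf1 spans 1512810 to 1527095 on 2R, far more sequence than a tRNA gene. Its folds were 2.3 and 2.49 in Zelda-GFP damaged, 2.13 and 2.4 in Zelda-GFP undamaged, 2.23 and 2.71 in wild-type damaged, and 2.67 and 2.4 in wild-type undamaged discs, so tagged and untagged values overlapped. Brf, a TFIIIB subunit, had 1.63 in Zelda-GFP undamaged replicate 1 and 2.02 in wild-type damaged replicate 2.

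Of 21 genes in the aminoacyl-tRNA synthetase list, the enzymes that charge tRNAs, 3 and 2 were hit in Zelda-GFP damaged and 1 and 0 in Zelda-GFP undamaged discs. Wild-type damaged discs had 0 and 7 hit and wild-type undamaged discs 0 and 4. All annotated genes were hit at 15.2% and 16.6%, 7.32% and 3.16%, 5.19% and 19.3%, and 3.19% and 9.26% in these 4 groups in the same order. The list was made by symbol and includes the mitochondrial PheRS-m. GlyRS, the glycine enzyme, was the 1 gene hit in both Zelda-GFP damaged lists (2.0 and 1.84) and neither wild-type damaged list, and it had a fold of 1.7 in wild-type undamaged replicate 2. All annotated genes met that call at 5.4%.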

How the data were processed

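The authors deposited 1 peak list per library (narrowPeak layout), so peaks were called per library and not on pooled replicates. Per the submitters' processing notes the build was dm6 and the tools included bcl2fastq 2.20, Bowtie2, SAMtools, Picard, deepTools and MACS2, whose roles, settings and versions are otherwise not given in the sources used here. Peak names record that duplicates were marked. Whether a control library entered peak calling is not stated. Per the file layout, the deposited columns hold a linear fold ratio at the summit, the −log10 p-value, the −log10 q-value (lowest 1.32) and an integer score. The score was deposited by the authors and served only to check the layout. Nothing places folds of different lists on a common scale.

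Gene positions and symbols came from the RefSeq Release 6 table, which gives neither strand nor sequence, so no tRNA sequence or motif was examined. Positions are 1-based. Hits needed 1 bp of overlap with the gene and 500 bp each side. Intervals on shares are 95% Wilson intervals and reflect counting error alone, and the limit for a count of 0 is 3 counts. Depth was recovered from fold and p under a Poisson tail. Genes were tested over libraries by two-sided exact permutation with Benjamini-Hochberg adjustment over 17673 genes. Python 3.11.15, numpy 2.4.6, pandas 2.3.3 and scipy 1.17.1 were used. The code of the exact test and of the overlap call was tested on simulated data, and the other code was not.

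Named loci were the 8 hit in most lists (ties by within-list percentile of fold), up to 5 in each class of agreement between libraries, and the 5 with most genes; others are marked where they appear. The genes and lists were chosen with earlier results of these data known. Alternatives changed the flank, the fold and q limits, list length, overlap rule, counting unit and libraries used.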

Additional observations from a re-analysis of the deposited data

Results flagged for a closer look

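Wild-type undamaged replicate 2 stood apart from the other 3 undamaged libraries in its share of tRNA genes hit, at 6.1%, against 0.339% in both Zelda-GFP undamaged libraries and 0% in wild-type undamaged replicate 1. The gap to its nearest neighbour was 0.944 of the whole range, above Dixon's 95% critical value for 4 values. Chance puts about 1 in 20 groups past that limit. Its list held 3355 arm peaks and a background coverage of 40.4 fragments per base, against 2908 and 1698 peaks and coverages of 51.8 and 35.3 in Zelda-GFP undamaged discs and 1744 peaks and a coverage of 32.6 in the other wild-type undamaged library. With lists of equal length it had 4 hits, or 1.36%, against 1 in each Zelda-GFP undamaged library and 0 in wild-type undamaged replicate 1.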

How the results depend on the processing

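Of 140 alternative values for 10 results, 102 were labelled near the reported one, 35 moved and 3 reversed. A share difference was labelled near when it did not change sign and changed by less than the larger SD of its 2 groups. That SD was 4.31 points where wild-type undamaged discs took part, so the label is loose there. The undamaged tag difference (-2.71 points) was labelled near at -0.169 with a fold of at least 3, at -0.339 with lists of equal length and at -5.76 without wild-type undamaged replicate 1. The Zelda-GFP minus wild-type difference in damaged discs (4.24 points) was 0.169 with the gene span alone and with at least 0.5 of the gene covered, 0.847 with a fold of at least 3, 1.86 with a −log10 q of at least 5, 1.19 with lists of equal length (1698 peaks) and 1.36 with the summit in the window. The damaged minus undamaged difference in Zelda-GFP (5.93 points) was 0.339, 0.339, 0.847, 1.86, 1.19 and 3.05 in the same order, and 8.47 with 1000 bp on each side. Both stayed positive throughout. The count of tRNA genes in both Zelda-GFP damaged and neither wild-type damaged list (9) was 0, 0, 1, 2, 2 and 2 in that order. The count against Zelda-GFP undamaged (8) was 0, 0, 1, 1, 1 and 2, with 13 at 1000 bp and 5 when loci were counted once. Why these values moved was not tested, apart from the smaller window or shorter lists that each alternative builds in. The same counts over all annotated genes were not computed for these alternatives, nor with a library left out.

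Leaving out each library in turn, the tag difference ran from 2.88 to 5.59 in damaged and from -5.76 to 0.339 in undamaged discs, and the damage difference from 5.08 to 6.78 in Zelda-GFP and from -4.07 to 2.03 in wild type. The 3 reversals are the undamaged tag difference without wild-type undamaged replicate 2 (0.339) and the wild-type damage difference without that library (2.03) or without wild-type damaged replicate 1 (0.339). Counts ran from 9 to 21 and from 8 to 20 for the 2 Zelda-GFP damaged calls, from 0 to 1 for Zelda-GFP undamaged against wild type, from 0 to 10 for wild-type damaged against undamaged, and from 0 to 1 for genes with exact p under 0.05 for the tag. Samples were not paired by replicate number in the main tests, and correlations of same-numbered deviations lay between -0.1 and 0.12. With 2 libraries per group and few hits, these values cannot show whether same-numbered libraries were handled together. With a replicate block (36 labelings, smallest exact p 0.0556) 0 tRNA genes passed in either test, as none could. Leaving out the pseudogenes, chosen after seeing the data, took the count of 9 to 8 and both Zelda-GFP undamaged lists from 1 hit to 0, since tRNA:Glu-CTC-5-1Psi was the gene concerned, and the differences were 3.97, -2.93, 6.03 and -0.862 points. Read depth is unknown, so an absent peak says only that none was called.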
